A study of Danio rerio with 6 samples.

Results

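A set of genes of T cell receptor signalling was followed in zebrafish (Danio rerio) liver RNA. It holds 10 of the 30628 genes in the deposited table, among them THEMIS, cd4-1, ZAP70, lck, cd8a, cd28, lat, TOX and foxp3a. They were picked by name with earlier results of the same comparison known, and the question put to them was whether THEMIS keeps pace with the other T cell genes. Their own values are therefore given as a description, without p-values. All 10 symbols matched 1 row each, with letter case ignored.

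The ATG5 group (n = 3) carried Tg(fabp10a:mCherry-T2A-LexPR;LexOP:ATG5WT), in which the fabp10a promoter of hepatocytes drives mCherry and a mifepristone-activated LexPR regulator that switches on human ATG5, an autophagy gene. The WT group (n = 3) was wild type, and both groups received mifepristone and carry the label 2 wpi. The series' design text calls the groups hepatocellular carcinoma and normal liver. Since no fish had the transgene without the drug, ATG5 itself and other differences between the lines cannot be told apart. The labels give neither age nor whether a replicate is 1 fish or a pool, so every p-value refers to the variation among these libraries alone, and that variation may be technical.

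T cells recognise peptides on MHC molecules through the T cell receptor and its CD3 and zeta chains. The coreceptors CD4 and CD8 bring the kinase LCK to the receptor, and LCK and ZAP70 phosphorylate it and the adaptor LAT. In mice, THEMIS binds LAT through GRB2 and is needed for the maturation of thymocytes, while FOXP3 defines regulatory T cells and TOX is needed for CD4 lineage development in the thymus. In zebrafish, cd4-1 is expressed by some mononuclear phagocytes as well as by T cells.

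Total estimated counts ran from 33669057 to 44763325 per library. Levels are in CPM, each count divided by its library's TMM-scaled total, and 3 counts in a library correspond to 0.0503 to 0.0607 CPM in ATG5 and 0.0897 to 0.12 CPM in WT. CPM is not scaled for gene length, so levels were compared between libraries and not between genes. Of the 12 hepatocyte markers 9 were called lower in ATG5 and 0 higher by the edgeR test described below. Of all tested genes 13.2% were called lower and 17.3% higher. The summed level of these markers was 68217 to 102320 CPM in ATG5 and 227445 to 276459 CPM in WT. These results depend on the scaling. With library sizes in place of TMM factors, 578 genes in all were called lower. Of the most abundant markers, tfa then lost its call and apoa1b kept it. The least abundant of the 12 in ATG5, tdo2b, had 0.689, 0.668 and 0.0335 CPM in ATG5 and 356, 85.7 and 143 CPM in WT, and ATG5 replicate 3 lay below the level of 3 counts. The log2 fold of tdo2b, -8.72, was by far the largest fall on the list. The median of the list was -1.74, with -1.4 for tfa and -1.86 for apoa1b. The gene fabp10a, whose promoter drives the transgene, had 4899, 5137 and 8671 CPM in ATG5 and 13258, 9562 and 12285 CPM in WT. Its log2 fold was -0.91, and it did not pass (edgeR adjusted p = 0.0764). Before scaling, the fabp10a counts of the groups overlapped, at 263029, 253821 and 516989 in ATG5 and 331234, 319636 and 309568 in WT. In these bulk samples fewer cells of a type and less RNA per cell cannot be told apart.

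THEMIS was counted at 22873, 17167 and 22595 in ATG5 replicates 1 to 3, against 7, 26 and 21 in WT replicates 1 to 3. Its normalised levels were 426, 347 and 379 CPM in the ATG5 libraries and 0.28, 0.778 and 0.833 CPM in the WT libraries. No ATG5 library came near a WT library, and the log2 fold of ATG5 over WT was 9.23 ± 0.47 (SE, n = 3 per group), the 24th largest among 20366 tested genes. Larger folds included those of genes with few or no WT counts, such as KCNAB2 and atp1a1a.3, whose size is poorly known, so the rank is approximate. The estimated counts of THEMIS were whole numbers (within 0.001) in all 6 libraries, as they were for ZAP70, cd8a, lat and foxp3a. Leaving out each library in turn gave log2 folds of THEMIS between 8.88 and 9.46.

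**Figure D1:**
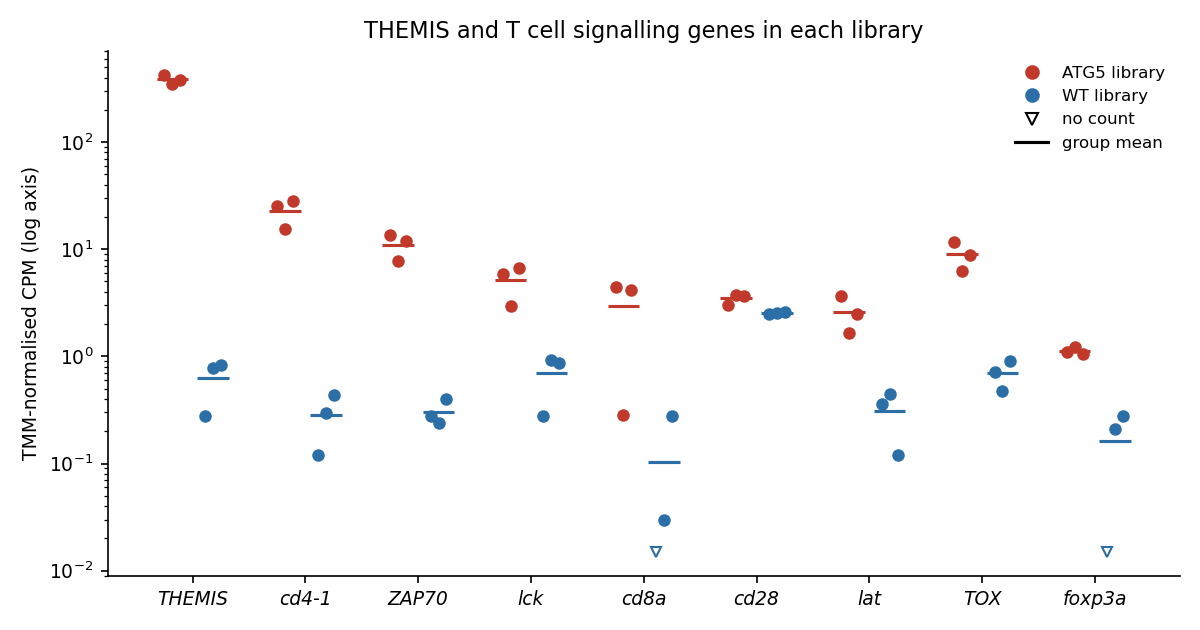
TMM-normalised CPM (log axis) of 9 of the 10 genes, with ATG5 libraries in red to the left of WT libraries in blue, a bar at each group mean and an open triangle where a library had no count. THEMIS lies at 347 to 426 CPM in ATG5 and below 1 CPM in WT, and the cd8a level of 1 ATG5 library (0.283 CPM) lies just above the highest WT library (0.278 CPM).

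The coreceptor gene cd4-1 stood at 25.1, 15.4 and 28.1 CPM in ATG5 and 0.12, 0.299 and 0.437 CPM in WT. Its log2 fold of 6.31 ± 0.52 was the next largest among the 10 genes. The other coreceptor, cd8a, was uneven within the ATG5 group, with 236, 14 and 246 counts (4.4, 0.283 and 4.13 CPM), against 0, 1 and 7 counts in WT (0, 0.0299 and 0.278 CPM). ATG5 replicate 2 thus lay at the level of WT replicate 3, and the log2 fold was 4.85 ± 1.48. Without WT replicate 3 it was 7.22, and cd8a no longer passed the test described below without ATG5 replicate 1 or 3 or without WT replicate 1 or 2, nor with no filter or a replicate block. A stricter filter removed cd8a before the test.

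The kinase gene ZAP70 had 13.5, 7.77 and 11.9 CPM in ATG5 and 0.28, 0.239 and 0.397 CPM in WT, a log2 fold of 5.17 ± 0.30. The kinase gene lck, whose product acts before ZAP70, had 5.83, 2.93 and 6.71 CPM in ATG5 and 0.28, 0.927 and 0.873 CPM in WT, a log2 fold of 2.88 ± 0.63. The groups were apart for both kinases, by a wider margin for ZAP70. The adaptor gene lat, whose product gathers the downstream enzymes, had 3.67, 1.66 and 2.48 CPM in ATG5 and 0.36, 0.449 and 0.119 CPM in WT, a log2 fold of 3.05 ± 0.58.

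TOX, a nuclear factor, stood at 11.6, 6.31 and 8.92 CPM in ATG5 and 0.72, 0.479 and 0.913 CPM in WT, a log2 fold of 3.67 ± 0.36. The regulatory T cell factor foxp3a had 59, 61 and 63 counts in ATG5 (1.1, 1.23 and 1.06 CPM) and 0, 7 and 7 counts in WT (0, 0.209 and 0.278 CPM), a log2 fold of 2.76 ± 0.87. Its 3 ATG5 libraries were nearly level. The costimulatory receptor gene cd28 differed least of the 10, with 3.04, 3.74 and 3.64 CPM in ATG5 and 2.48, 2.54 and 2.58 CPM in WT, a log2 fold of 0.45 ± 0.09.

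Each of the 10 genes was tested, and each was higher in every ATG5 library than in every WT library, which was also so for 27.1% of the 20366 tested genes (49.3% were apart in either direction). The edgeR quasi-likelihood test called 7 of the 10 higher at an adjusted p under 0.05 and none lower, where 17.3% of all tested genes were called higher and 13.2% lower (30.6% in all). Among the 3 not called were cd28 and foxp3a. The members had been chosen on this contrast, so nothing is read from these counts. Without the replicate that had no foxp3a count, WT replicate 1, foxp3a was called, as it was over all 6 libraries with DESeq2 or a stricter filter, and with library sizes in place of TMM factors all 10 were called, where 53.3% of all tested genes were called higher and 2.84% lower.

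THEMIS differed more between the groups than any of the other 9 genes. Their median log2 fold was 3.05, and that of THEMIS was larger by 6.19, while the gap to cd4-1 was 2.93. The median over all tested genes was 0.03. Measured within each library, the log2 CPM of THEMIS exceeded the mean log2 CPM of the other 9 genes by 6.46, 7.07 and 6.34 in ATG5 replicates 1 to 3 and by 0.37, 0.89 and 0.67 in WT replicates 1 to 3. The mean excess was 6.62 ± 0.39 in ATG5 and 0.64 ± 0.26 in WT (SD, n = 3 each), a difference of 5.98 on the log2 scale, in which the scaling between libraries largely cancels. The excess itself depends on gene lengths, and only its difference between the groups can be read.

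**Figure D2:**
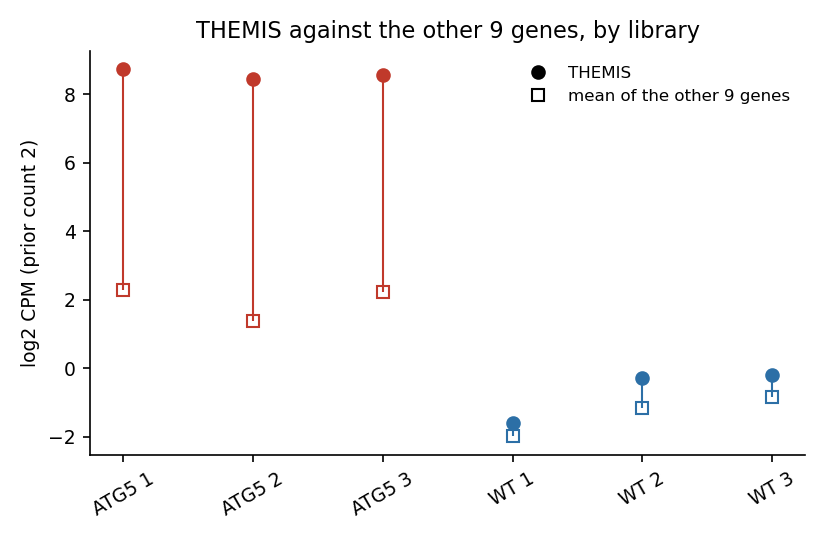
Log2 CPM (prior count 2) of THEMIS (filled circles) and the mean of the other 9 genes (open squares) in each library, ATG5 in red and WT in blue. The line between them spans 6.34 to 7.07 in the ATG5 libraries and 0.37 to 0.89 in the WT libraries.

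The other T cell genes also varied among the ATG5 libraries in a way that THEMIS followed only in part. This split by library was chosen after its values were seen and has no test. ATG5 replicate 2 was the lowest ATG5 library for 7 of the 9 other genes, and for THEMIS too. This library was also the lowest for 34.9% of all tested genes and 49.2% of all genes called higher. Its level relative to the mean of ATG5 replicates 1 and 3 was 0.863 for THEMIS, 0.579 for cd4-1, 0.613 for ZAP70, 0.468 for lck, 0.54 for lat, 0.616 for TOX and 0.0665 for cd8a. The exceptions, cd28 and foxp3a, stood at 1.12 and 1.15. The median of the 9 genes was 0.613, against 0.882 for all 3529 genes called higher and 0.989 for all tested genes. THEMIS varied 1.23-fold from its lowest to its highest ATG5 library, and lck varied 2.29-fold.

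**Figure D3:**
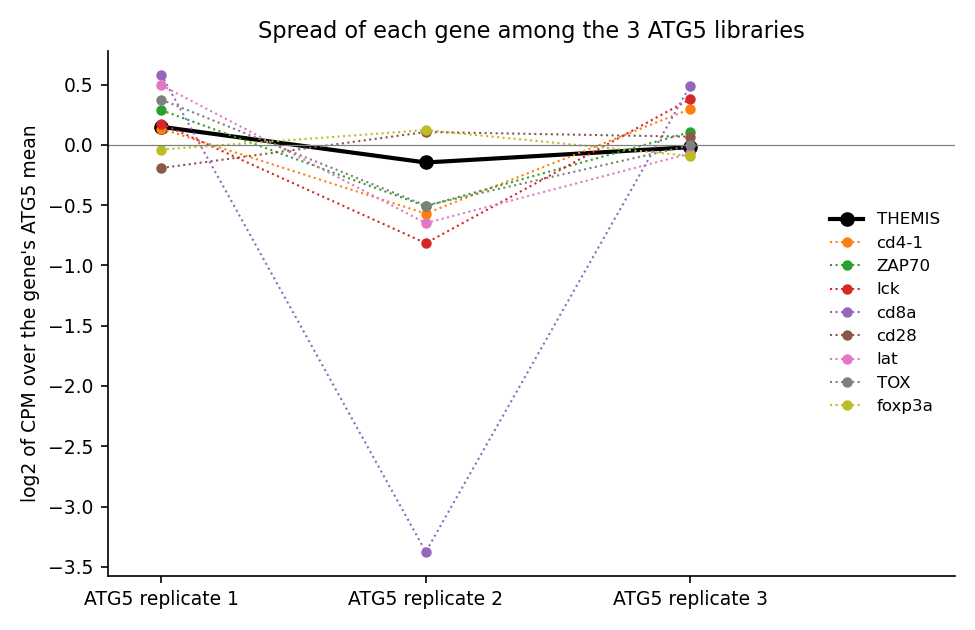
Each gene's CPM in the 3 ATG5 libraries as a log2 ratio to its own ATG5 mean, with THEMIS as the thick black line and 8 of the other 9 genes dotted. The lines join the values of 1 gene and imply no order of the replicates. THEMIS, cd28 and foxp3a stay near 0, and cd8a drops far below it in ATG5 replicate 2.

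By the root mean square difference of log2 CPM centred over the 6 libraries, where 0 would be the same profile, the named genes most like THEMIS were mxb (0.79), atp1a1a.3 (0.84), ftr11 (0.98), WIF1 (1.0) and KCNAB2 (1.02). The antiviral gene mxb had 73.5, 71.4 and 58.4 CPM in ATG5 and 0, 0 and 0.278 CPM in WT. The finTRIM gene ftr11 had 16.4, 13.8 and 27.1 CPM in ATG5 and 0, 0.15 and 0 CPM in WT. The Wnt inhibitor gene WIF1 had 78.8, 40.9 and 90.1 CPM in ATG5 and 0.28, 0.359 and 0.238 CPM in WT. In each of these the groups lay far apart. KCNAB2, a potassium channel subunit gene, had 28.8, 55.6 and 25.6 CPM in ATG5 and 2 counts over the WT group, a ratio of 1496 with a 95% exact counting interval of 414 to 12354. The pump gene atp1a1a.3 had 45.2, 92.5 and 22.5 CPM in ATG5 and no WT count. It was at least 1429-fold higher in ATG5, with 3 counts over the 3 WT libraries as the floor. Both KCNAB2 and atp1a1a.3 were highest in ATG5 replicate 2, where THEMIS was lowest. A small difference by this measure thus reflected a like gap between the groups more than a like order of the ATG5 libraries. None of these 5 genes is on the T cell lists, and they were found on the same libraries that chose THEMIS.

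The T cell genes lay further off by this measure. It used log2 CPM with a prior count of 2, which limits the gap between the groups for a gene with few counts. For genes as low in ATG5 as sh2d1aa or foxp3a, a large difference from THEMIS was thus set by their counts. The lower a gene was in ATG5, the less near to THEMIS it could come. This limit also bears on lat, cd226, cd8a and il21, with means of 2.6, 2.81, 2.94 and 3.02 CPM in ATG5. Nothing is read from the differences of these genes from THEMIS. Of the other 9 members, cd4-1 came nearest to THEMIS at 1.56, 38th among tested genes, then ZAP70 at 2.21 (146th). The measures for lck, lat and TOX were 3.21, 3.26 and 2.9, and cd28 was farthest at 4.44. Within the lists of other T cell genes the nearest were sh2d1aa (2.53), il21 (2.66), tnfb (2.69), the CCR9 gene ENSDARG00000055186 (2.71) and cd226 (2.79). The adaptor gene sh2d1aa had 1.34, 0.789 and 1.27 CPM in ATG5 and 1 count over the WT group, a ratio of 96.1 with a 95% exact counting interval of 17 to 3815. The cytokine gene il21 had 3.39, 2.08 and 3.59 CPM in ATG5 and 0.0801, 0.299 and 0.0794 CPM in WT.

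The paralogue themis2, which in mice acts in B cells and macrophages, did not pass the test. Its levels were 5.22, 3.6 and 4.61 CPM in ATG5 and 2.24, 8.59 and 1.67 CPM in WT, and the log2 fold was 0.10 ± 0.73 (edgeR adjusted p = 0.922). WT replicate 2 was the highest of the 6, and without it themis2 was called higher, with a log2 fold of 1.18 (edgeR adjusted p = 0.0454), while its fold was below 0, down to -0.29, without ATG5 replicate 1, WT replicate 1 or WT replicate 3. The gene next to THEMIS in the RefSeq order of another assembly (GRCz12tu) that matched the table was PTPRK, a receptor phosphatase gene. It had 19.3, 17.8 and 22.9 CPM in ATG5 and 13.4, 14.6 and 9.92 CPM in WT, and its log2 fold of 0.66 ± 0.20 (edgeR adjusted p = 0.0468) lost its call without any one of the 6 libraries. On the other side leg1.1 and leg1.2 matched no symbol and were not analysed here. The genes of the proteins that THEMIS is known to bind in mice, GRB2 and the phosphatases SHP1 and SHP2, were looked up after their values were seen, and they did not move together. PTPN6, which encodes SHP1, was called higher with a log2 fold of 1.31 ± 0.37 (edgeR adjusted p = 0.0249), a call lost without ATG5 replicate 1 or 3 or WT replicate 1 or 2. Of the SHP2 genes, ptpn11b was called lower with a log2 fold of -0.88 ± 0.26 (edgeR adjusted p = 0.0325), a call lost without any library but WT replicate 1 and with a replicate block, and PTPN11 had one of -0.29 and did not pass, though DESeq2 called it lower. With library sizes only, both SHP2 genes changed sign, and PTPN11 was called higher. The GRB2 genes grb2b and ENSDARG00000105276 had log2 folds of 0.35 and 0.95 and did not pass (edgeR adjusted p = 0.22 and 0.308).

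Of the other T cell genes, listed by function, 170 rows matched and 143 passed the filter on low counts. The edgeR test called 72 of these 143 higher (50.3%) and 6 lower (4.2%), against 17.3% and 13.2% of all tested genes, with a median log2 fold of 1.4 against 0.03. A gene near 0 in WT could pass that filter through its ATG5 counts alone. With no filter on low counts, 70 of 170 were called higher and 5 lower, against 3166 and 2221 of 27861 genes. The median log2 fold was then 1.32 against 0.12. Among the 143 tested T cell genes none had a larger estimated log2 fold than THEMIS. The fold of gzma, which had no WT count, is only bounded from below. The counting interval of the sh2d1aa ratio reached 3815. For these genes the order relative to THEMIS is not settled. With library sizes only, 120 of the T cell genes were called higher, where 53.3% of all tested genes were. ATG5 replicate 2 was the lowest ATG5 library for 58 of the 72 genes called higher (80.6%), against 49.2% of all genes called higher.

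**Figure D4:**
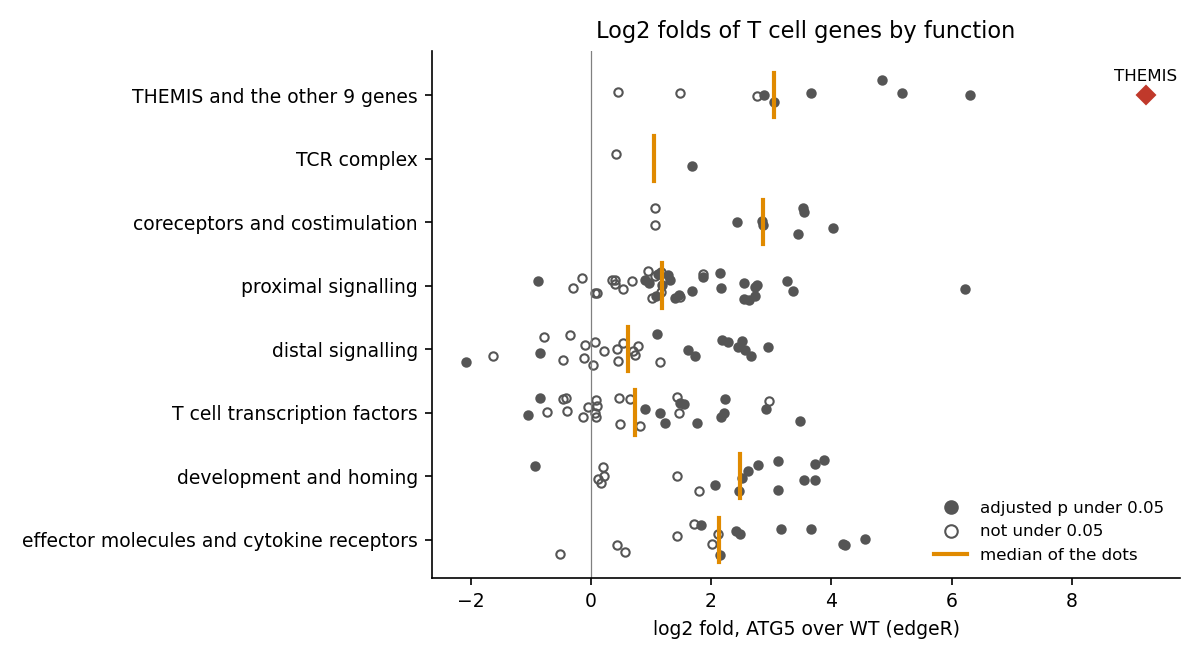
Log2 folds (ATG5 over WT, edgeR with TMM scaling) of the tested T cell genes by function, 1 dot per gene, filled where the adjusted p was under 0.05, with the median of the dots in orange. The red diamond is THEMIS at 9.23, which the median of its row leaves out, and gzma is not drawn because it had no WT count. The row medians of the costimulation and the homing lists lie furthest right among the function lists.

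Of 14 listed receptor complex symbols only 2 matched a row, so the list says little about the receptor and CD3 chains. In it 1 of 2 tested genes rose, cd247l, a relative of the zeta chain gene, with a log2 fold of 1.69 ± 0.31 (edgeR adjusted p = 0.0211), a call lost without ATG5 replicate 1 or 3 or WT replicate 2 or 3 and with a replicate block. The zeta chain gene cd247 had 5.31, 3.42 and 3.66 CPM in ATG5 and 2.04, 5.62 and 1.55 CPM in WT, and the groups overlapped. Among coreceptors and costimulatory molecules 7 of 9 rose and 0 fell (median log2 fold 2.86). The coreceptor gene cd8b had 2.07, 0.729 and 2.78 CPM in ATG5 and 0.841, 1.11 and 0.714 CPM in WT. Its groups overlapped, and it did not pass (edgeR adjusted p = 0.181). The activating receptor gene cd226 had 3.78, 1.62 and 3.02 CPM in ATG5 and 0.0801, 0.15 and 0.278 CPM in WT (edgeR adjusted p = 0.00467). The TNF receptor gene cd27 and the CD40 ligand gene cd40lg had log2 folds of 3.44 ± 0.43 and 3.53 ± 0.53 (edgeR adjusted p = 0.00625 and 0.00819). The costimulatory receptor gene tnfrsf9a had 20.3, 16.4 and 22.1 CPM in ATG5 and 1.8, 1.35 and 1.9 CPM in WT.

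Among proximal signalling genes 22 of 39 rose and 1 fell, with a median of 1.19. The phosphatase gene ptprc, which encodes CD45 and marks leukocytes at large, had 70.6, 42.4 and 73.4 CPM in ATG5 and 10.7, 11.6 and 7.7 CPM in WT, and its log2 fold was 2.63 ± 0.31 (edgeR adjusted p = 0.00219). GRAP2 and grap2b, adaptors that link LAT to SLP-76, had log2 folds of 2.54 ± 0.24 and 2.54 ± 0.22 (edgeR adjusted p = 0.00224 and 0.00153). CORO1A, an actin regulator of leukocytes, had one of 2.73 ± 0.28 (edgeR adjusted p = 0.00164). Phospholipase C gamma (PLCG1) and the LCK inhibitor kinase CSK did not pass the test, with log2 folds of -0.14 and 0.07.

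The distal signalling list was split, with 10 of 28 rising, 2 falling and a median of 0.62. The NF-kappaB genes REL and nfkb2 rose with log2 folds of 2.67 ± 0.24 and 1.74 ± 0.17 (edgeR adjusted p = 0.00158 and 0.00191), and tagapa, a regulator of small GTPases, with 2.94 ± 0.38 (edgeR adjusted p = 0.00321). Over all the T cell lists 6 genes fell, among them NFATC3, ptpn11b, stat5a, the FOXO1 gene ENSDARG00000099555 and the NOTCH1 gene ENSDARG00000052094. Each of these 5 lost its call with library sizes only, where 4 of them, all but FOXO1, changed sign, and without at least 1 of the libraries, and the number of T cell genes that fell was 1 without ATG5 replicate 2, 2 without ATG5 replicate 1, WT replicate 2 or WT replicate 3, and 3 without ATG5 replicate 3 or WT replicate 1.

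Among the transcription factors of T cells 11 of 30 rose and 2 fell (median 0.74). MYB, a factor of blood progenitors, had a log2 fold of 3.48 ± 0.46 (edgeR adjusted p = 0.00659), and bcl11bb, a paralogue of the T lineage commitment factor BCL11B, one of 2.92 ± 0.30 (edgeR adjusted p = 0.00735). STAT4, which acts in T helper type 1 cells, had 11.2, 7.29 and 12 CPM in ATG5 and 1.6, 2.6 and 2.34 CPM in WT, and its log2 fold was 2.22 ± 0.31 (edgeR adjusted p = 0.00372). ETS1 had one of 1.76 ± 0.27 (edgeR adjusted p = 0.00543). GATA3, the factor of T helper type 2 cells, stayed below 1 CPM in every library and did not pass.

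Among development and homing genes 11 of 18 rose and 1 fell, with a median of 2.48. The integrin gene itgb7, whose product homes lymphocytes to the gut, had 24, 24.9 and 29.8 CPM in ATG5 and 1.56, 1.91 and 2.46 CPM in WT, and its log2 fold was 3.73 ± 0.21 (edgeR adjusted p = 0.000655). The integrin gene itgae.2, the CXCR4 gene ENSDARG00000041959, a chemokine receptor gene, and S1PR1, a lipid receptor gene for exit from lymphoid organs, had log2 folds of 3.12 ± 0.25, 2.46 ± 0.17 and 2.62 ± 0.10 (edgeR adjusted p = 0.00116, 0.000976 and 0.00201). Of the recombinase genes of T cell receptor rearrangement, RAG1 had at most 0.186 CPM in ATG5 and 0.0598 CPM in WT and was not tested. RAG2 had 0.335, 1.11 and 0.537 CPM in ATG5 and 0.841, 0.598 and 0.278 CPM in WT, the groups overlapped and it did not pass (edgeR adjusted p = 0.833).

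Of 35 effector and cytokine receptor genes only 17 passed the filter on low counts, so genes too low in both groups are not covered by the count of 10 that rose and 0 that fell (median 2.15). The receptor genes il21r.1 and il10ra had log2 folds of 3.67 ± 0.35 and 3.16 ± 0.23 (edgeR adjusted p = 0.0015 and 0.000957), and jak3, the kinase of the common gamma chain receptors, had one of 2.41 ± 0.30 (edgeR adjusted p = 0.00298). The cytokine gene tnfb had 7.64, 5.91 and 8.49 CPM in ATG5 and 0.56, 0.15 and 0.516 CPM in WT (edgeR adjusted p = 0.00288). The granzyme gene gzma had no WT count and was at least 17.5-fold higher in ATG5, with the same floor.

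Markers of some other immune cells moved with the T cell genes, and their part in those results was not tested. The counts of every list stand beside 17.3% of all tested genes called higher and 13.2% lower. Of the macrophage markers 20 of 26 tested rows rose and 1 fell, and their summed level was 2048 to 2491 CPM in ATG5 and 497 to 724 CPM in WT. Some symbols stood for several rows, MFAP4 for 8 and CMKLR1 for 3, not all of them tested. The row that fell was an MFAP4 gene, ENSDARG00000090557 (log2 fold -2.19), while other MFAP4 rows rose, among them ENSDARG00000088745 (4.12). Of the B cell markers 16 rows matched and 12 were tested, of which 8 rose and 0 fell. The summed level of the list was 48.5 to 100 CPM in ATG5 and 8.06 to 10.3 CPM in WT. As on the T cell lists, a gene near 0 in WT could pass the filter through its ATG5 counts alone. Examples are cd79a, with 3, 1 and 1 WT counts, and CXCR5, with 0, 4 and 0. The MHC class II chaperone gene cd74a had 736, 612 and 726 CPM in ATG5 and 173, 95.5 and 133 CPM in WT, and the antibody gene ighm had 59.1, 12.1 and 17.6 CPM in ATG5 and 0.6, 1.2 and 0.437 CPM in WT. Other antibody genes were split. While ighd and igic1s1 were called higher (log2 folds 4.07 and 4.44), igl1c3 and igl4v8 had log2 folds of -0.34 and -0.11 and did not pass (edgeR adjusted p = 0.489 and 0.885). The gene cd68, like cd74a among the most abundant macrophage markers, had 426, 310 and 426 CPM in ATG5 and 366, 247 and 293 CPM in WT. For cd68 the groups overlapped, and it did not pass (edgeR adjusted p = 0.276). ATG5 replicate 2 stood at 0.541 of the mean of the other ATG5 libraries for the B cell sum and at 0.836 for the macrophage sum, beside 0.863 for THEMIS. For other lists it stood at 0.652 (natural killer), 0.676 (hepatocyte), 0.8 (biliary), 0.883 (dendritic), 0.99 (neutrophil) and 1.44 (erythrocyte). The median over all genes called higher was 0.882, and the value of THEMIS lay near it. Each sum is weighted to its most abundant genes, and single genes differed. This ratio was 0.316 for ighm and 0.943 for blnk on the B cell list. On the macrophage list it was 0.643 for c1qa and 0.837 for cd74a. Of the natural killer and innate lymphoid markers 16 rows matched and only 7 were tested, so low genes of this list are not covered. Some rows, among them il2rb and the EOMES gene ENSDARG00000104243, are also on the T cell lists. Of the 7 tested 0 were called by edgeR, where 1 had an unadjusted p under 0.05 and DESeq2 called 1. The summed levels overlapped, at 46.9 to 88.3 CPM in ATG5 and 43.7 to 54.4 CPM in WT. The most abundant gene of that sum was zbtb16b, with 62.3, 24.2 and 29.4 CPM in ATG5 and 24.3, 18.8 and 20.2 CPM in WT, while the receptor gene nitr5 was low and apart, at 1.21, 0.708 and 1.51 CPM in ATG5 and 0.56, 0.299 and 0.357 CPM in WT. ZBTB16 was apart in the other direction, at 6.02, 9.55 and 8.62 CPM in ATG5 and 10.6, 10.6 and 23.4 CPM in WT. Its log2 fold was -0.88 and it did not pass (edgeR adjusted p = 0.125). The sums of the neutrophil list overlapped at 101 to 108 CPM in ATG5 and 101 to 147 CPM in WT, where 2 of 8 rose and 1 fell, and il6r, which fell, and srgn, which rose, made up most of the sum. The dendritic list had 4 of 8 rising, at 142 to 198 CPM in ATG5 and 95.9 to 110 CPM in WT, most of it from ID2, which did not pass. Among other lists the biliary one moved too, with 8 of 11 markers rising, 0 falling and a summed level of 3274 to 4384 CPM in ATG5 and 1176 to 1568 CPM in WT. The acinar pancreas sum was 495, 408 and 320 CPM in ATG5 and 68.1, 1198 and 2273 CPM in WT, so WT replicate 1 stood apart from the other WT libraries. No gene of these 5 immune lists was at 0 in all 6 libraries, and no tested gene of any marker list had a larger log2 fold than THEMIS.

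**Figure D5:**
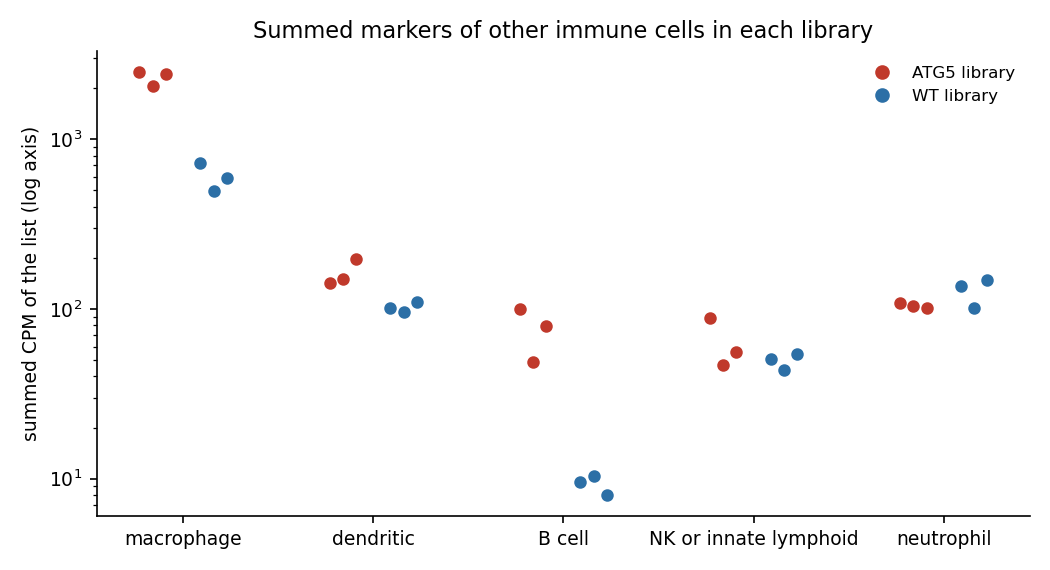
Summed TMM-normalised CPM (log axis) of the marker lists of other immune cells in each library, ATG5 in red to the left of WT in blue. The macrophage, dendritic and B cell sums lie apart between the groups, and the natural killer and neutrophil sums overlap or touch.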

How the data were processed

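Per the labels' protocols, liver RNA of 3 ATG5 and 3 WT samples was extracted with TRIzol, and libraries were made with the TruSeq Stranded kit for total RNA. The authors deposited 1 table of estimated counts with Ensembl identifiers. The submitters' processing notes name the build GRCz11 and, without roles, kallisto 0.45.0, FastQC 0.11.5 and sleuth 0.30.0. Whether counting used the strand is not stated in any label or header, so antisense overlap cannot be told apart, and counts of near-identical paralogues are uncertain. Symbols matched 23608 of 30628 genes (77.1%), and some lack a paralogue suffix. Of 217 listed T cell symbols 165 matched.

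Counts were rounded, filtered with filterByExpr (20366 genes left), scaled with TMM factors (1.33 to 1.47 in ATG5 and 0.684 to 0.763 in WT) and compared with the quasi-likelihood test of edgeR 4.0.16 (glmQLFit, glmQLFTest, group only, run in R 4.3.3) and Benjamini-Hochberg adjustment at 0.05 over all tested genes. Standard errors were computed from log2 CPM values with a prior count of 2, which narrows them near 0 counts. Floors and intervals cover counting error only. The edgeR steps were tested on simulated counts in which few genes changed, in random directions. Those counts held no shift between the groups like that of the TMM factors, so they do not check the scaling. No 2 libraries agreed within sampling noise.

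The members and gene lists were chosen with earlier results of these data known. Named were the members, themis2, per list up to 4 called genes with the smallest p and groups that did not overlap, the 5 genes most like THEMIS overall and on the lists, and its neighbours. Genes named outside this rule were chosen after their values were seen, and not all that it takes are named; 2 genes, 1 of them a member, enter the counts and medians but are not reported here. Alternatives were RLE factors, library sizes only, 2 other filters, DESeq2 1.42.0, leaving out each library, a prior count of 0.5 and a block for replicate. Figures were drawn with matplotlib 3.10.9.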

Additional observations from a re-analysis of the deposited data

How the results depend on the processing

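With library sizes only, 10853 genes were called higher and 578 lower, and 120 and 1 of the other T cell genes, because all log2 folds moved up (median 0.97). Same-numbered libraries did not deviate together (correlations of -0.04, -0.1 and 0.02). Whether the numbers pair the samples is not given by the labels and cannot be settled by these correlations. With a replicate block 2253 genes were called higher and 1636 lower, and 54 and 3 of the other T cell genes. Leaving out 1 library gave 2218 to 2791 genes higher and 1583 to 2071 lower, and 53 to 70 and 1 to 3 of the other T cell genes, with fewer samples in each fit. The excess of the THEMIS log2 fold over the median of the other members was 5.74 to 6.36, lowest without WT replicate 1. THEMIS was called in every alternative run, and 6 to 10 of the 10 members were. Genes near 3 counts per library limit what depth can show, among them cd8a and foxp3a in WT.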
